A study of Caenorhabditis elegans with 27 samples.

Results

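The polysomal (P) mRNA of gld-4(RNAi) animals was compared with that of control RNAi animals over all genes of the raw count table. The comparison uses 6 of the 27 libraries of the series, 3 of gld-4(RNAi) and 3 of control RNAi, chosen by their sample labels. All 6 came from whole Caenorhabditis elegans hermaphrodites of the wild-type strain N2, kept at 20 °C and harvested as young adults 24 h after mid-L4. The gld-4(RNAi) animals ate bacteria that make double-stranded gld-4 RNA, and the control RNAi animals ate bacteria with the empty feeding vector L4440. Both groups are otherwise the same genotype and gld-4(RNAi) is a knockdown and not a null mutant. Extracts were spun through sucrose gradients, the polysomal fractions were pooled as P and the lighter ones as non-polysomal (NP), and poly(A) mRNA was sequenced from both and from the unfractionated extract (input). The P libraries held 14963172, 15472916 and 16175155 counts in gld-4(RNAi) and 13511707, 14667285 and 16209864 counts in control RNAi.

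An mRNA that is being translated carries several ribosomes and sinks into the heavy part of a sucrose gradient, so that its level in P follows both its abundance and its loading with ribosomes. GLD-4 is a cytoplasmic poly(A) polymerase of the TRF4 family, enriched in the germ line. Lengthening of poly(A) tails in the cytoplasm is a known way to keep germline mRNAs stable and open to translation. The question of the comparison is which mRNAs become more or less abundant on polysomes when gld-4 is reduced.

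The replicate 1 libraries stood apart from the others in both groups, and all results below have to be read with this. The log counts of gld-4(RNAi) replicate 1 correlated with those of gld-4(RNAi) replicates 2 and 3 at 0.858 and 0.863, whereas these correlated with each other at 0.996. The corresponding values in control RNAi were 0.943, 0.943 and 0.996. Counts were put on a common scale by TMM, which equalizes the bulk of the genes, and are given below as normalized counts. mRNAs of spermatogenesis summed to 129700, 13530 and 13280 normalized counts in gld-4(RNAi) and 45640, 10870 and 10760 in control RNAi, and so were high in both replicate 1 libraries and highest in that of gld-4(RNAi). Intestinal, cuticle collagen, muscle and ribosomal protein mRNAs were also highest in the replicate 1 libraries of both groups, while 8 early zygotic mRNAs summed to 2972, 5444 and 5354 in gld-4(RNAi) and 4031, 4918 and 5174 in control RNAi. Since whole animals were sequenced, fewer cells of a type and less RNA per cell cannot be told apart.

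**Figure D1:**
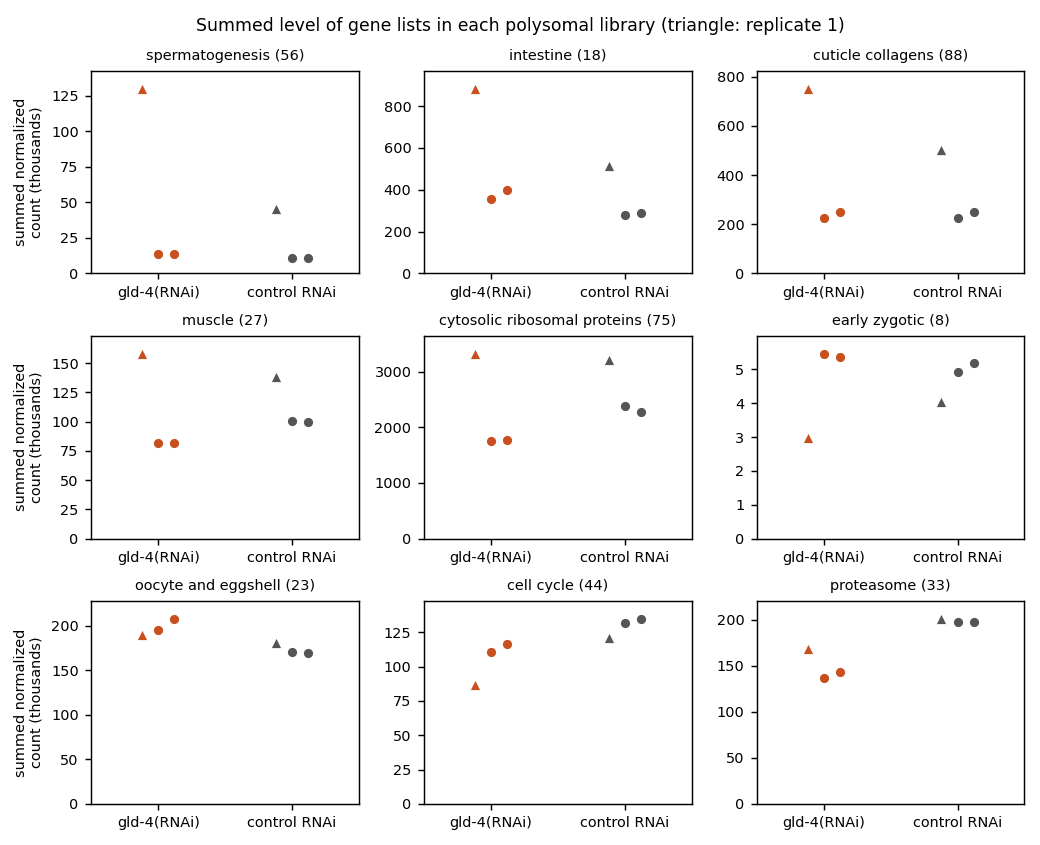
Summed normalized count (axes scaled down as their label states, from 0) of 9 gene lists in each P library, with gld-4(RNAi) in orange on the left, control RNAi in grey on the right, triangles for replicate 1, circles for replicates 2 and 3, and the number of genes tested in brackets. Spermatogenesis, intestine and collagen sums are far higher in replicate 1 of both groups, whereas cell cycle and proteasome sums are lower in all 3 gld-4(RNAi) libraries than in all 3 control libraries.

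The gld-4 mRNA itself fell to 0.0819 of its control level on polysomes. It had 168, 169 and 213 normalized counts in the 3 gld-4(RNAi) libraries and 2177, 1926 and 2628 in the 3 control libraries. The groups did not overlap, and the log2 fold change was -3.61 ± 0.18 (± SE, n = 3 each, edgeR adjusted p = 0.00727), so that the targeted mRNA was low in every library labelled gld-4(RNAi). Without 1 library the change stayed between -3.73 and -3.48 but missed the threshold without gld-4(RNAi) replicate 2 or control replicate 1 (edgeR adjusted p = 0.126 and 0.0898). ZK858.2, the gene next to gld-4 in the RefSeq annotation, had 305, 123 and 108 normalized counts in gld-4(RNAi) and 466, 706 and 482 in control RNAi. All 3 gld-4(RNAi) libraries were below the controls, but the fold change of -1.63 ± 0.45 (log2) did not pass the test (edgeR adjusted p = 0.103). With the replicate number as a block it passed (edgeR adjusted p = 0.0426). ZK858.2 was lower in input (-2.09 ± 0.27, edgeR adjusted p = 0.0105) and at -1.23 ± 0.45 in NP (edgeR adjusted p = 0.0978).

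Beyond gld-4, few mRNAs changed by 2-fold or more on polysomes. Of 7418 expressed genes, those with a mean of at least 100 normalized counts over the 9 input libraries, 18 fell (0.243%) and 25 rose (0.337%) by 2-fold or more in gld-4(RNAi) with an edgeR adjusted p not above 0.05. The adjusted p alone was passed by 282 genes (3.8%), 199 of them lower (2.68%) and 83 higher (1.12%). The median log2 fold change over all tested genes was 0.02, with 47.8% of them below 0 and 52.2% above. All 43 called mRNAs moved the same way in the 3 same-numbered pairs of libraries, as did 31.7% of all tested genes downwards and 34% upwards. In none of the 43 did the groups overlap, which was also the case for 32.4% of all tested genes. Replicate numbers were taken to pair the libraries, although the values could not tell number 2 from number 3. With the number as a block 27 mRNAs were called lower and 93 higher, the 43 included at adjusted p. At adjusted p alone 12.2% of all genes were lower and 9.71% higher with the block, and 0.364% and 1.25% at both thresholds. List counts with the block below are to be read against the shares at adjusted p alone. DESeq2 called 20 and 78.

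These calls rest on all libraries being present. Without gld-4(RNAi) replicate 1, 32 mRNAs were lower and 35 higher, but each of the other 5 fits without 1 library called at most 1 mRNA, which was lower, although 1109 to 1549 genes had an unadjusted p under 0.05 there. Without both replicate 1 libraries 39 were lower and 56 higher, while without both of replicate 2 or of replicate 3 none was called in either direction (569 and 518 genes at an unadjusted p under 0.05). The fitted direction of each of the 43 was the same in the 6 fits without 1 library, as it was for 4931 of all 7418 tested genes. Since the groups did not overlap in any of the 43, leaving out 1 library could hardly change their direction. A fold change of 2 whatever the p was reached by 26 mRNAs downwards and 323 upwards. Of these 323, 311 had their largest change in the replicate 1 pair (median 1.77 there, against 0.63 and 0.59 in pairs 2 and 3, log2) and 45 are on the spermatogenesis list.

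**Figure D2:**
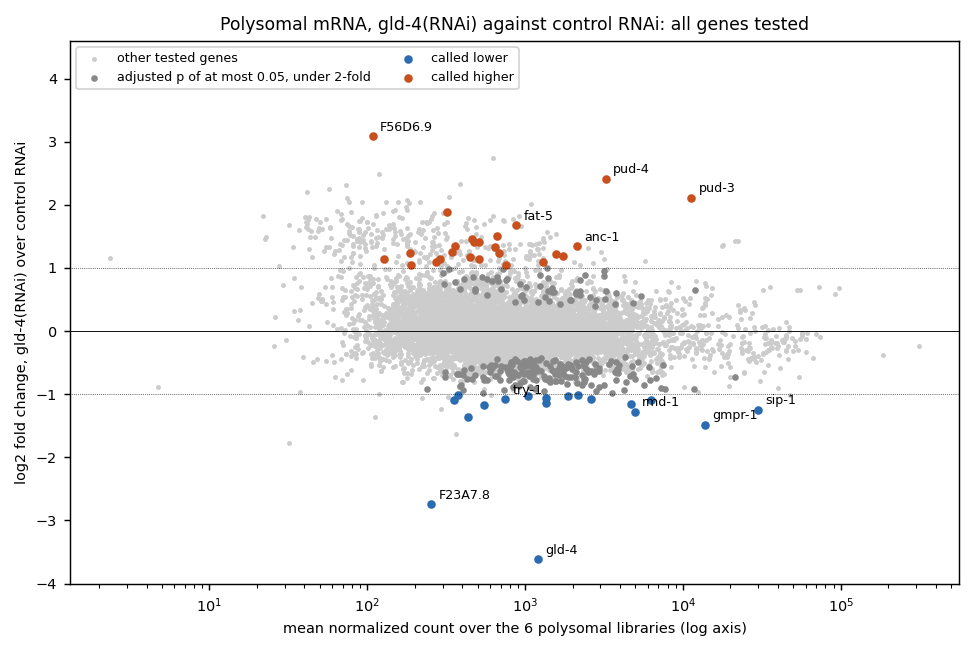
Log2 fold change of each of 7418 genes in P (gld-4(RNAi) over control RNAi; dotted lines at 2-fold) against its mean normalized count over the 6 P libraries (log axis). Blue points are the 18 mRNAs called lower, orange points the 25 called higher and dark grey points the other genes with an adjusted p of at most 0.05; the cloud of light points above the upper line holds 2-fold increases that did not pass the test.

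After gld-4, the lowest mRNA was F23A7.8, with 90.3, 46.6 and 62.8 normalized counts in gld-4(RNAi) and 592, 359 and 379 in control RNAi (log2 fold change -2.74 ± 0.34, edgeR adjusted p = 0.0342). Its fold change was of similar size in all 3 pairs (-2.71, -2.93 and -2.58). gmpr-1, which encodes GMP reductase of purine salvage, had 9584, 5931 and 6301 normalized counts in gld-4(RNAi) and 20280, 20420 and 20370 in control RNAi. The control libraries were nearly equal and the gld-4(RNAi) libraries all far below them, with replicate 1 the least reduced (-1.49 ± 0.22, edgeR adjusted p = 0.0379). rmd-1, a microtubule-associated protein needed for chromosome segregation, had 2596, 2998 and 3076 normalized counts in gld-4(RNAi) and 6188, 7404 and 7455 in control RNAi (-1.28 ± 0.12, edgeR adjusted p = 0.0334). Replicate 1 was the lowest library of rmd-1 in both groups.

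sip-1, a small heat shock protein of the alpha-crystallin family, was the most abundant of the mRNAs called lower. It had 18990, 15730 and 18470 normalized counts in gld-4(RNAi) and 41920, 41510 and 42590 in control RNAi, with little spread within either group (-1.25 ± 0.16, edgeR adjusted p = 0.0342). try-1, a trypsin-like protease, had 479, 458 and 501 normalized counts in gld-4(RNAi) and 1024, 1091 and 932 in control RNAi, again without overlap (-1.08 ± 0.10, edgeR adjusted p = 0.0334). map-1, a methionine aminopeptidase that trims new proteins, had 1003, 740 and 799 normalized counts in gld-4(RNAi) and 2071, 1679 and 1818 in control RNAi (-1.13 ± 0.15, edgeR adjusted p = 0.0342). In map-1 the replicate 1 library was the highest of each group.

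The other mRNAs called lower had log2 fold changes between -1.36 and -1.01. They include H04M03.3 (-1.36), F43G6.7 (-1.17), R05H5.3 (-1.09), F56F11.4 (-1.03) and W06D11.3 (-1.01), for which no role is given here. Among those with known roles were ruvb-1, an AAA+ ATPase of chromatin and ribosome-biogenesis complexes (-1.08), the eggshell gene perm-1 (-1.05), the prolyl isomerase pinn-1 (-1.02) and the deubiquitinating enzyme otub-1 (-1.01). gpd-4, a glyceraldehyde-3-phosphate dehydrogenase, also fell (-1.15), but reads of gpd-4 and its near-identical copy gpd-1 may not be told apart. The same doubt holds for the core histone gene his-68 (-1.09), one of many similar copies. The neighbouring histone gene his-67 averaged only 14.3 normalized counts in gld-4(RNAi) and 49.4 in control RNAi, without overlap (-1.78 ± 0.40, edgeR adjusted p = 0.0667, 0.0276 with the block).

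**Figure D3:**
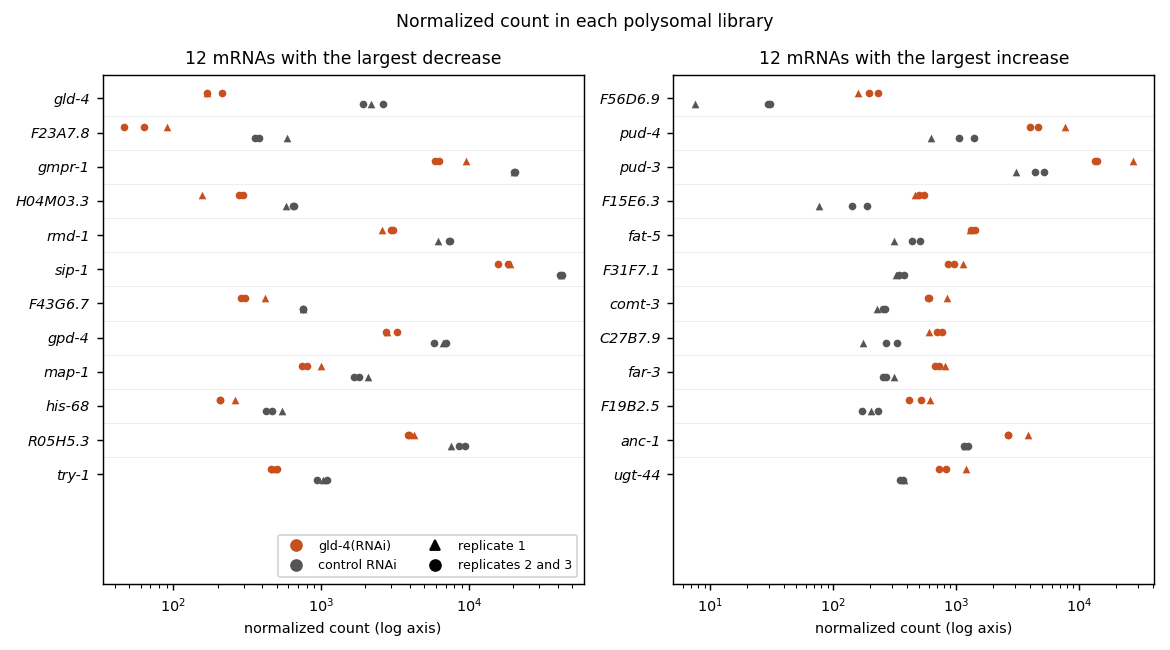
Normalized count (log axes) in each P library of the 12 mRNAs with the largest decrease (left) and the 12 with the largest increase (right) among those called, with gld-4(RNAi) in orange above control RNAi in grey, triangles for replicate 1 and circles for replicates 2 and 3. The orange and grey points of a gene do not overlap in any of the 24, and F56D6.9 and F15E6.3 show a wide spread among controls.

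The 18 mRNAs called lower in P differed in how far they were also lower in the extract as a whole. Their median log2 fold change was -1.11 in P, -0.62 in NP and -0.79 in input, and 8 of 18 fell in input with an edgeR adjusted p not above 0.05, against 7.54% of all genes. The fractions may share extracts, so these values are set side by side and not treated as independent. In input 15 of the 18 were below 0. gld-4, map-1 (input -1.05), ruvb-1 (input -1.25), his-68 (input -1.09) and gpd-4 were about as low in input as in P. Below 0 in input, but less so than in P, were F23A7.8 (-1.52), H04M03.3 (-0.87), otub-1 (-0.85) and pinn-1 (-0.79). The same held for perm-1 (-0.78), F56F11.4 (-0.54) and W06D11.3 (-0.26). Of these, his-68, gpd-4, H04M03.3, pinn-1 and W06D11.3 did not pass the test in input. By contrast, sip-1 was 0.08 ± 0.38 in input and 0.20 ± 0.26 in NP, try-1 was 0.05 ± 0.26 and -0.18 ± 0.17, R05H5.3 was -0.07 ± 0.27 and -0.19 ± 0.19, and rmd-1 was -0.14 ± 0.26 and -0.41 ± 0.18 (log2 fold change ± SE). gmpr-1 was -0.47 ± 0.10 in input, where it passed the test, and F43G6.7 was 0.35 ± 0.24.

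An interaction term between fraction (P or input) and RNAi, fitted to the libraries of both fractions, asked whether a change in P exceeded that in input. No mRNA passed an edgeR adjusted p of at most 0.05 (0% in either direction); 504 genes (6.79%) were lower and 291 (3.92%) higher at an unadjusted p under 0.05, and DESeq2 called 21 at adjusted p and 2-fold. The interaction was -1.57 ± 0.30 for F43G6.7 (unadjusted p = 0.000267, edgeR adjusted p = 0.196), -1.36 ± 0.48 for sip-1 (0.0157 and 0.331), -1.17 ± 0.34 for rmd-1 (0.00559 and 0.251), -1.16 ± 0.32 for try-1 (0.00427 and 0.238) and -1.04 ± 0.24 for gmpr-1 (0.00113 and 0.232). For each of these 5 the fall in P exceeded that in input at an unadjusted p only. The 5 were chosen by their fall in the same P libraries, which also enter the interaction. Their unadjusted p-values therefore cannot be read like those of genes chosen beforehand. The same holds for their p-values against NP below. The like test against NP passed for 2 genes lower (0.027%), rab-8, a small GTPase of membrane traffic (-0.81 ± 0.08, edgeR adjusted p = 0.0137), and rpn-11 (-1.18 ± 0.14, 0.0293), and for 1 higher (0.0135%), eif-2Balpha (1.05 ± 0.14, 0.0462). With a block for each RNAi and replicate number 64 genes were lower (0.863%) and 43 higher (0.58%). For the 5 genes above, the edgeR adjusted p against NP was 0.143 for F43G6.7, 0.0867 for sip-1, 0.168 for rmd-1, 0.126 for try-1 and 0.204 for gmpr-1. With this block it was 0.0838 for F43G6.7 and 0.0431 for each of the other 4.

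**Figure D4:**
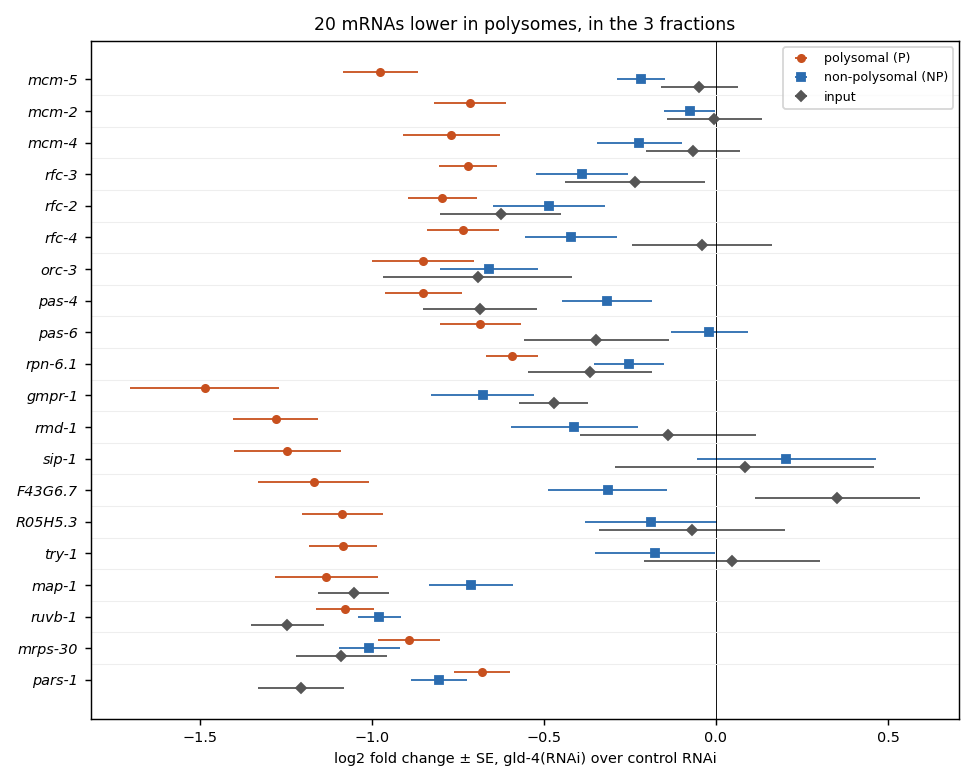
Log2 fold change ± SE (gld-4(RNAi) over control RNAi, n = 3 each) of 20 mRNAs that were lower in P, in P (orange circles), NP (blue squares) and input (grey diamonds). The 20 were picked by hand and are not a fair sample of the mRNAs called lower. Called lower but not shown are gld-4, F23A7.8, H04M03.3, gpd-4, his-68, F56F11.4, otub-1, perm-1, pinn-1 and W06D11.3, all below 0 in input. The replication genes mcm-5, mcm-2 and mcm-4 and also sip-1, try-1 and R05H5.3 lie near 0 in input and well below 0 in P, whereas ruvb-1, mrps-30 and pars-1 are at least as low in input.

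On a list of 44 tested cell cycle genes, 7 fell in P with an edgeR adjusted p not above 0.05 (15.9%, against 2.68% of all genes) and none rose, and with the block 15 were lower and 1 higher. All 7 are known to act in DNA replication: mcm-2, mcm-4 and mcm-5 of the MCM helicase that opens the DNA, rfc-2, rfc-3 and rfc-4 of the clamp loader, and orc-3 of the origin recognition complex. mcm-5 had 2144, 2472 and 2596 normalized counts in gld-4(RNAi) and 4358, 4876 and 4942 in control RNAi (-0.97 ± 0.11, edgeR adjusted p = 0.0334). Both groups were tight and far apart.

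mcm-2 had 3771, 3164 and 3622 normalized counts in gld-4(RNAi) and 5693, 5545 and 6091 in control RNAi (-0.72 ± 0.10, edgeR adjusted p = 0.0379), and mcm-4 was at -0.77 ± 0.14 (edgeR adjusted p = 0.0482). The other helicase subunits mcm-3 (-0.48), mcm-6 (-0.40) and mcm-7 (-0.34) did not pass the test, but mcm-3 and mcm-6 did with the block (edgeR adjusted p = 0.0246 and 0.0281). rfc-3 had 1417, 1497 and 1498 normalized counts in gld-4(RNAi) and 2578, 2409 and 2284 in control RNAi (-0.72 ± 0.08, edgeR adjusted p = 0.0334). rfc-2 (-0.80), rfc-4 (-0.74) and orc-3 (-0.85) were lower too, without overlap between groups. Other replication genes did not pass, among them the clamp loader subunit rfc-1 (-0.09, edgeR adjusted p = 0.673), the origin complex genes orc-1 (-0.09), orc-2 (-0.10) and orc-5 (-0.28), the sliding clamp pcn-1 (-0.26), and the loading factors cdc-6 (-0.21) and cdt-1 (-0.37).

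In input, the 6 MCM mRNAs had a median log2 fold change of 0.06, from -0.07 to 0.36, against -0.60 in P and -0.07 in NP. Of the other called genes, rfc-4 was at -0.04 ± 0.20 in input and rfc-3 at -0.24 ± 0.20, whereas rfc-2 was at -0.62 ± 0.18 and orc-3 at -0.69 ± 0.27. Over the whole list of 44 the medians were -0.27 in P, -0.08 in NP and 0.10 in input, against 0.02, 0.02 and 0.03 over all genes. At an unadjusted p under 0.05, 14 of the 44 were lower in P relative to input and none higher, against 6.79% and 3.92% of all genes. Among these were pcn-1 (interaction -0.96 ± 0.30, unadjusted p = 0.00798, edgeR adjusted p = 0.269) and mcm-5 (-0.96 ± 0.18, 0.000222 and 0.193). mcm-5 was chosen by its fall in the same P libraries. The list sums were 86670, 110600 and 116800 normalized counts in gld-4(RNAi) and 121100, 131900 and 134500 in control RNAi. Replicate 1 was the lowest library of each group, and the list median by pair was -0.51, -0.17 and -0.16 while early zygotic mRNAs had medians of -1.20, 0.14 and 0.03, and the part of this in the result was not tested. Without both replicate 1 libraries, 19 of the 44 were lower and 4 higher (25.6% and 24% of all genes).

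Of 33 tested proteasome subunit genes, 3 passed the test, all lower (9.09%, against 2.68% of all genes). Below 0 were 31, against 47.8% of all genes. With the block 20 were lower and none higher, against 12.2% and 9.71% of all genes. The median log2 fold change was -0.41 in P, 0.13 in NP and -0.07 in input. pas-4, an alpha subunit of the 20S core, had 4489, 3845 and 3756 normalized counts in gld-4(RNAi) and 7635, 7326 and 6833 in control RNAi (-0.85 ± 0.11, edgeR adjusted p = 0.0342). pas-6, another alpha subunit, had 4206, 3326 and 3623 in gld-4(RNAi) and 6306, 5763 and 5857 in control RNAi (-0.68 ± 0.12, edgeR adjusted p = 0.0442). The lid subunit rpn-6.1 was at -0.59 ± 0.08 (edgeR adjusted p = 0.0342). In all 3 genes the groups were separate.

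Other subunits missed the threshold narrowly. pas-5 was at -0.59 ± 0.11 (edgeR adjusted p = 0.051), pbs-2 at -0.71 ± 0.15 (0.0574) and the lid deubiquitinase rpn-11 at -0.60 ± 0.14 (0.0719), and all passed with the block (0.0227, 0.0206 and 0.0274). rpn-11 had 4918, 3604 and 3930 normalized counts in gld-4(RNAi) and 6226, 6049 and 6542 in control RNAi. It was at 0.21 in input and at 0.58 ± 0.08 in NP, where it was higher (edgeR adjusted p = 0.00664). The proteasome sums were 168900, 136800 and 143500 normalized counts in gld-4(RNAi) and 200500, 197500 and 197700 in control RNAi, so that the replicate 1 pair showed the smallest gap. In the interaction with input, 10 of the 33 were lower and none higher at an unadjusted p under 0.05, against 6.79% and 3.92% of all genes. Without both replicate 1 libraries 29 were lower and 1 higher, against 25.6% and 24% of all genes.

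Among other genes of protein folding and turnover, all 8 subunits of the CCT chaperonin were below 0, against 47.8% of all genes. The chaperonin folds actin and tubulin, and its list had medians of -0.50 in P, -0.16 in NP and -0.28 in input. cct-8 (-0.77 ± 0.11, edgeR adjusted p = 0.0359) and cct-4 (-0.58 ± 0.10, 0.0467) passed the test (25%, against 2.68% of all genes lower). With the block 4 were lower, against 12.2% of all genes. Of 41 ubiquitin and ligase genes, the conjugating enzymes ubc-18 (-0.65), ubc-12 (-0.62) and ubc-13 (-0.54) were lower, whereas the activating enzyme uba-1 was higher at 15630, 13160 and 14610 normalized counts in gld-4(RNAi), against 9066, 9233 and 9462 in control RNAi (0.64 ± 0.12, edgeR adjusted p = 0.0496). Past the threshold were 9.76% of the 41, against 3.8% of all genes, and with the block 7 were lower and 3 higher. Of 50 heat shock genes, sip-1 (above), the co-chaperone sti-1 (-0.81) and dnj-9 (-0.54) were lower. The small heat shock gene hsp-17 (0.86) and dnj-5 (0.44) were higher. Past the threshold were 10% of the 50, and with the block 7 were lower and 10 higher. hsp-1, the constitutive HSP70, had 37970, 27350 and 29080 normalized counts in gld-4(RNAi) and 67930, 61570 and 61130 in control RNAi. The groups did not overlap, yet hsp-1 missed the threshold (-1.01 ± 0.20, edgeR adjusted p = 0.0543, 0.0191 with the block), and it was lower in input as well (-1.49). Of 17 ER folding genes only the oxidase ero-1 was higher (0.50), and 14 of 17 were above 0, against 52.2% of all genes. With the block 7 were higher and 1 lower, against 9.71% and 12.2% of all genes.

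**Figure D5:**
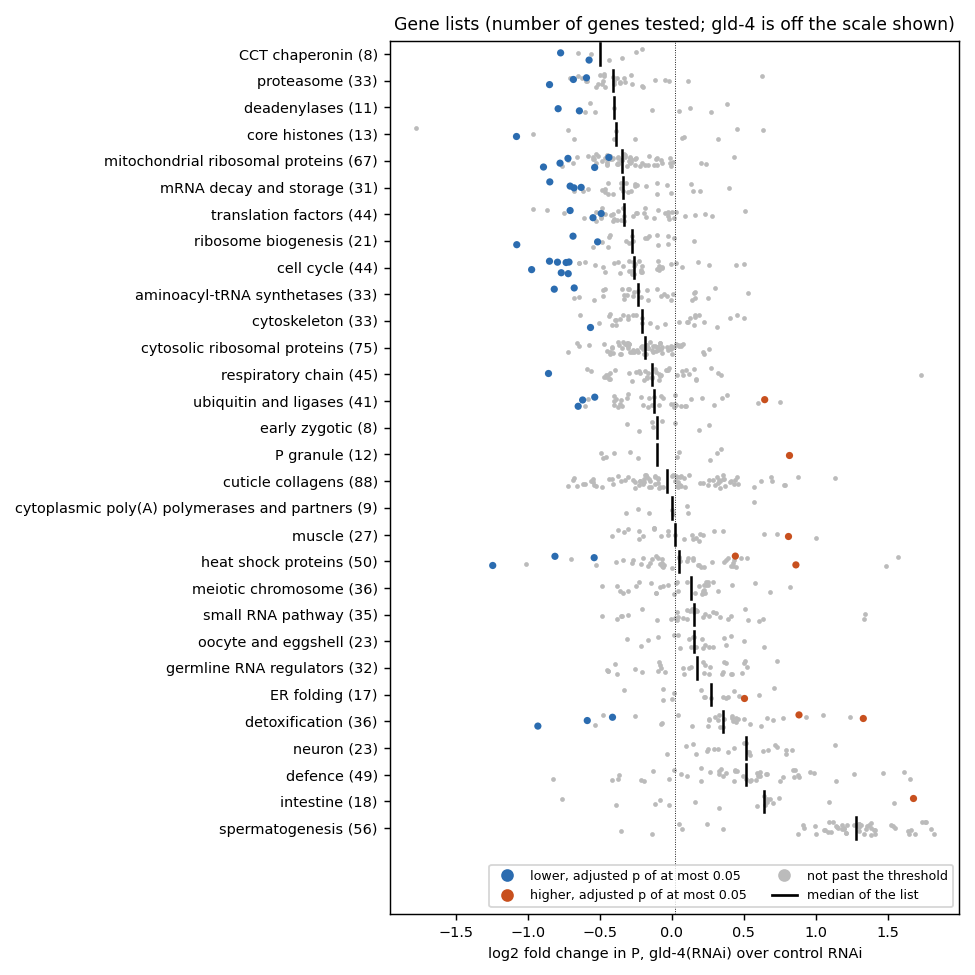
Log2 fold change in P of the tested members of 30 gene lists (gld-4(RNAi) over control RNAi), ordered by their median (black bar), with members past the adjusted p threshold in blue (lower) or orange (higher) and others in grey. The chaperonin list has a median of -0.50, the proteasome list of -0.41 and the cytosolic ribosomal protein list of -0.19, the cell cycle list has 7 blue points, and spermatogenesis has a median of 1.28 with no member past the threshold.

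Of 44 translation factor genes, 3 were lower and none higher at adjusted p (6.82%, against 2.68% of all genes lower). With the block 20 were lower and 1 higher, against 12.2% and 9.71% of all genes. Below 0 were 36 (median -0.33), against 47.8% of all genes. eif-2alpha (Y37E3.10), a subunit of the initiation factor that brings the initiator tRNA, had 4392, 4230 and 4276 normalized counts in gld-4(RNAi) and 6169, 5915 and 6047 in control RNAi. The 3 libraries of each group were within a few percent of each other (-0.49 ± 0.08, edgeR adjusted p = 0.0426). eif-2Bbeta, of the exchange factor for that protein, was at -0.71 and eif-3.K at -0.55. Another subunit of the exchange factor, eif-2Balpha (ZK1098.4), was at -0.03 ± 0.12 in P (643, 533 and 561 normalized counts in gld-4(RNAi), 647, 562 and 563 in control RNAi), although it was lower in input (-1.02, edgeR adjusted p = 0.0147).

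Of 67 mitochondrial ribosomal protein genes, 5 were lower (7.46%, against 2.68% of all genes) and none higher. With the block 35 were lower and 1 higher, against 12.2% and 9.71% of all genes. Below 0 were 63, against 47.8% of all genes. mrps-30 had 814, 698 and 740 normalized counts in gld-4(RNAi) and 1392, 1384 and 1402 in control RNAi (-0.89 ± 0.09, edgeR adjusted p = 0.0334), and mrps-26 (-0.78), mrpl-21 (-0.72), mrpl-50 (-0.54) and mrpl-4 (-0.44) were lower too. The list had medians of -0.35 in P, -0.60 in NP and -0.76 in input, and in the interaction 19 of 67 were higher and none lower at an unadjusted p under 0.05, against 3.92% of all genes. Of 33 aminoacyl-tRNA synthetase genes, pars-1 (-0.68) and fars-3 (-0.82) were lower (6.06%, against 2.68% of all genes). With the block 9 were lower and 1 higher. Of 21 ribosome biogenesis genes, ruvb-1, nol-14 (-0.69) and ruvb-2 (-0.52) were lower (14.3%), and 7 were lower with the block. The medians of the synthetase list were -0.23 in P and -0.35 in input, and those of the ribosome biogenesis list -0.28 in P and -0.58 in input.

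None of 75 cytosolic ribosomal protein genes passed the test, and 5 were lower with the block, against 12.2% of all genes. Their median was -0.19, but by pair it was 0.06, -0.43 and -0.36, so that replicate 1 differed in sign from the other pairs. Without both replicate 1 libraries 68 of 75 were lower, against 25.6% of all genes. rps-23, the most abundant, had 104900, 55690 and 53880 normalized counts in gld-4(RNAi) and 93320, 70330 and 65460 in control RNAi (-0.10 ± 0.34, edgeR adjusted p = 0.908). rpl-3 was at -0.43 ± 0.33 (0.493). The gradient marker gene F52B5.6, named rpl-25.2 in the study and rpl-23A.2 in RefSeq, was at -0.42 ± 0.30 (0.462), with 23100, 13350 and 12590 normalized counts in gld-4(RNAi) and 27090, 20030 and 18290 in control RNAi. The ribosomal protein mRNAs of the replicate 1 libraries thus lay apart from the rest in both groups.

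Among mRNAs for RNA decay factors, 4 of 31 were lower (12.9%, against 2.68% of all genes) and none higher. With the block 15 were lower and none higher, against 12.2% and 9.71% of all genes. gut-2, an Lsm protein of the ring that binds the ends of decaying mRNAs, had 715, 642 and 652 normalized counts in gld-4(RNAi) and 1122, 1004 and 1094 in control RNAi (-0.68 ± 0.09, edgeR adjusted p = 0.0354). lsm-4 (-0.85), lsm-3 (-0.71) and the exosome subunit exos-9 (-0.63) were the others. In input lsm-4 was at -0.01 ± 0.26, while gut-2 was lower (-1.01). Deadenylases shorten poly(A) tails and so oppose poly(A) polymerases. Of 11 genes on a list of deadenylases and associated subunits, the deadenylase gene ccf-1 had 2056, 1848 and 1928 normalized counts in gld-4(RNAi) and 3179, 2945 and 2984 in control RNAi (-0.64 ± 0.08, edgeR adjusted p = 0.0342). ntl-4 was lower too (-0.79 ± 0.14, 0.0442). These 2 of 11 (18.2%) compare with 2.68% of all genes, and 5 of 11 were lower with the block, against 12.2%. In input ccf-1 and ntl-4 were at -0.90 and -0.80.

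Of 9 tested genes on a list of cytoplasmic poly(A) polymerases, related terminal nucleotidyltransferases, their partners and poly(A)-binding proteins, only gld-4 passed the test. With the block 1 was lower and 1 higher, against 12.2% and 9.71% of all genes. gld-2, the other germline cytoplasmic poly(A) polymerase, had 1111, 1260 and 1474 normalized counts in gld-4(RNAi) and 1024, 1295 and 1503 in control RNAi, with overlap between groups (0.0088 ± 0.18, edgeR adjusted p = 0.983). The poly(A)-binding protein genes pab-1 (-0.32 ± 0.24, 0.488) and pab-2 (-0.0018 ± 0.32, 0.998) overlapped between groups as well.

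Of the germline regulators that the study follows, gld-1, an RNA-binding repressor of translation, had 13620, 9738 and 9742 normalized counts in gld-4(RNAi) and 12060, 6834 and 7089 in control RNAi. It was highest in both replicate 1 libraries and did not pass the test (0.35 ± 0.28, edgeR adjusted p = 0.502, 0.059 with the block). In input gld-1 was higher (0.53 ± 0.10, edgeR adjusted p = 0.0212). glp-1, the Notch receptor that keeps germ cells dividing, had 2598, 2733 and 3082 normalized counts in gld-4(RNAi) and 2303, 2060 and 2194 in control RNAi, without overlap (0.36 ± 0.10, edgeR adjusted p = 0.0997, 0.0475 with the block). None of 32 germline RNA regulator genes passed (median 0.17). With the block 4 were lower and 3 higher, against 12.2% and 9.71% of all genes. Without both replicate 1 libraries 17 were higher and 4 lower, against 24% and 25.6% of all genes. In input the list median was 0.38, with 10 higher and 3 lower at adjusted p, against 7.08% and 7.54% of all genes. In NP it was 0.22, with 8 higher and 5 lower. The most abundant, mex-5 and puf-5, were at 0.08 and 0.12 in P and at 0.74 and 0.61 in input. Of 12 P granule genes only the RNA helicase glh-4 passed, and was higher (0.81 ± 0.12, edgeR adjusted p = 0.0379). It had 3308, 2616 and 2625 normalized counts in gld-4(RNAi) and 1678, 1624 and 1571 in control RNAi. The P granule list had 6 genes below and 6 above 0 (median -0.10), and with the block 3 were lower and 1 higher. None of 35 small RNA pathway genes passed, and its most abundant members were the Argonautes wago-1 (0.53 ± 0.11, edgeR adjusted p = 0.0585, 0.0231 with the block) and hrde-1 (0.39 ± 0.17, 0.239, 0.0486 with the block). With the block 5 of the 35 were higher and 1 lower, against 9.71% and 12.2% of all genes. None of 36 meiotic chromosome genes passed, him-1 being at 0.25 and zyg-12 at 0.03.

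None of 23 oocyte and eggshell genes passed in P, where the median was 0.16, whereas in input it was 0.58, with 8 of 23 higher at adjusted p (7.08% of all genes), and in NP 0.34, with 7 higher. cpg-2, an eggshell chondroitin proteoglycan, had 32830, 30630 and 33790 normalized counts in gld-4(RNAi) and 27060, 22910 and 23350 in control RNAi (0.41 ± 0.15, edgeR adjusted p = 0.18). cbd-1, which binds eggshell chitin, was at 0.28 ± 0.14 (0.298). In the interaction with input, 8 of 23 were lower and none higher at an unadjusted p under 0.05. The shares of all genes were 6.79% and 3.92%, and none of the 23 passed at an adjusted p. Of the spermatogenesis list, 56 genes were tested and 54 were above 0, against 52.2% of all genes. Their median was 1.28, but none passed the test. The pairs gave medians of 1.52, 0.38 and 0.38, and msp-36, a major sperm protein gene, had 6039, 494 and 494 normalized counts in gld-4(RNAi) and 1794, 319 and 310 in control RNAi (1.54 ± 1.27, edgeR adjusted p = 0.517, 0.0474 with the block). msp-31 was at 1.09 ± 1.22 (0.642). Without gld-4(RNAi) replicate 1, msp-36 was at -0.70 and msp-31 at -0.99. Without both replicate 1 libraries, 35 of the 56 were higher and 2 lower (24% and 25.6% of all genes), with a median of 0.39. Members of the msp family are near-identical, so that single genes are uncertain. With the block 5 of the 56 were higher, against 9.71% of all genes. Of 8 early zygotic genes none passed, lin-26 being at 0.02 and pal-1 at -0.07.

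Among the mRNAs called higher, F56D6.9 had the largest increase, with 159, 231 and 195 normalized counts in gld-4(RNAi) and 7.54, 30.8 and 29.2 in control RNAi (3.09 ± 0.53, edgeR adjusted p = 0.0447). Its lowest value was in replicate 1 of each group. pud-4 had 7752, 4653 and 3962 normalized counts in gld-4(RNAi) and 626, 1387 and 1055 in control RNAi (2.41 ± 0.39, edgeR adjusted p = 0.0423). Its neighbour pud-3 had 27310, 14110 and 13600 in gld-4(RNAi) and 3095, 5199 and 4406 in control RNAi (2.12 ± 0.36, 0.0442). All 6 tested pud genes were higher with the block (median 1.43 in P and 1.32 in input), and since they are similar to each other their single values are uncertain. For pud-3 and pud-4 the replicate 1 pair showed the widest gap.

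fat-5, a fatty acid desaturase of the gut, had 1288, 1322 and 1416 normalized counts in gld-4(RNAi) and 313, 437 and 509 in control RNAi. The gld-4(RNAi) libraries were tight and well above all controls (1.68 ± 0.19, edgeR adjusted p = 0.0334). F31F7.1 had 1136, 963 and 861 normalized counts in gld-4(RNAi) and 323, 378 and 343 in control RNAi (1.5 ± 0.14, 0.0334). far-3, a fatty acid- and retinol-binding protein, had 816, 728 and 670 in gld-4(RNAi) and 310, 257 and 268 in control RNAi (1.41 ± 0.13, 0.0334). anc-1, a giant protein that anchors nuclei and mitochondria to actin, had 3840, 2623 and 2655 normalized counts in gld-4(RNAi) and 1191, 1248 and 1150 in control RNAi (1.35 ± 0.17, 0.0342). Controls of anc-1 were nearly equal, and replicate 1 was the highest gld-4(RNAi) library.

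The others in the first 12 were F15E6.3 (1.89), the methyltransferase comt-3 (1.45), C27B7.9 (1.41), F19B2.5 (1.36) and the UDP-glucuronosyltransferase ugt-44 (1.33). Among the remaining 13, at 1.04 to 1.25, the chitinase cht-3 (1.09), the cation-transporting ATPase catp-3 (1.25) and the inositol trisphosphate receptor itr-1 (1.04) have known roles. F56D5.4 and Y71A12B.19, also among the 13, are annotated as pseudogenes. The 25 had medians of 1.25 in P, 1.27 in NP and 0.83 in input, all 25 were above 0 in both other fractions, and 20 passed in NP and 7 in input (9.68% and 7.08% of all genes higher). fat-5 (input 0.71, interaction 0.93 ± 0.33, unadjusted p = 0.0153) and anc-1 (input 0.40, interaction 0.92 ± 0.24, unadjusted p = 0.00301) were higher in P than in input at an unadjusted p only (edgeR adjusted p = 0.331 and 0.233). fat-5 and anc-1 were chosen by their rise in the same P libraries, which also enter the interaction. itr-1 was at 0.02 in input and 0.87 in NP.

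The somatic lists gave few calls. Of 18 intestinal genes fat-5 alone passed (median 0.64, with 7 higher and 1 lower with the block). Of 27 muscle genes only unc-89, a giant protein of the muscle M-line, passed (0.80 ± 0.12, edgeR adjusted p = 0.0391). The muscle list had pair medians of 0.40, -0.17 and -0.27, and with the block 1 was lower and 3 higher. Without both replicate 1 libraries 15 of the 27 were lower and 5 higher, against 25.6% and 24% of all genes. Of 36 detoxification genes, ugt-44 and gst-13 (0.88) were higher, and gst-7 had 3071, 2744 and 2886 normalized counts in gld-4(RNAi) and 4918, 5729 and 5947 in control RNAi (-0.93 ± 0.11, edgeR adjusted p = 0.0334), with values near 0 in input (0.04). gst-1 (-0.41) and cyp-31A3 (-0.59) were lower as well, but cyp-31A3 has a close copy in cyp-31A2. With the block 11 of the 36 were higher and 4 lower. None of 49 defence genes passed, although 23 were higher and 1 lower with the block (median 0.52). Among them spp-5 was at 0.61 (edgeR adjusted p = 0.424, or 0.0296 with the block) and clec-87 at 0.01. None of 23 neuronal genes passed (median 0.52), and 22 were above 0, against 52.2% of all genes. With the block 3 were higher and none lower. Their pair medians were 0.95, 0.22 and 0.07. snb-1, the 1 neuronal gene below 0, was at -0.04, and nlp-27 was at 0.54. None of 88 cuticle collagens passed (median -0.03). col-122 was at 0.46 and col-124 at 0.33, but at -0.33 and -1.06 without gld-4(RNAi) replicate 1. Without both replicate 1 libraries 38 collagens were lower and 9 higher. Of 45 respiratory chain genes ucr-2.3 was lower (-0.86 ± 0.10, edgeR adjusted p = 0.0342). With the block 9 of the 45 were lower and none higher, against 12.2% and 9.71% of all genes. Without both replicate 1 libraries 31 of the 45 were lower and none higher. Of 33 cytoskeleton genes arx-6 of the Arp2/3 complex was lower (-0.57 ± 0.08, edgeR adjusted p = 0.0366). It had 878, 919 and 889 normalized counts in gld-4(RNAi) and 1394, 1315 and 1269 in control RNAi. With the block 9 cytoskeleton genes were lower and 2 higher. arx-6 was at 0.13 in input.

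The mRNAs called lower and higher had shorter coding regions at the median than all tested genes, without a test. The median coding length was 865.5 bases for the 18 called lower and 582 for 23 of the 25 called higher, against 1188 for 7265 of the 7418 tested genes, from the longest coding sequence in the WBcel235 annotation. It was 1104 for the 199 lower and 1221 for 80 of the 83 higher at adjusted p alone. The 199 had medians of -0.67 in P, -0.52 in NP and -0.54 in input, and 74 were lower in input at adjusted p (7.54% of all genes). The 83 had medians of 0.80, 0.74 and 0.63, and 32 were higher in input (7.08% of all genes). In the interaction with input, 40 of the 199 and 16 of the 83 had an unadjusted p under 0.05, against 795 of all 7418 genes. The 199 and the 83 were chosen by their change in P, which also enters the interaction.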

How the data were processed

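For the deposited counts, the authors trimmed adapters, aligned single reads uniquely to WS220 with TopHat2 and counted reads per gene with featureCounts (Subread 1.4.0). Use of strand in counting is not given in the sources used here, so overlapping genes cannot be told apart. The table holds 45461 features, of which 44080 matched RefSeq locus tags (names only). The authors' comparison tables hold fold changes, p-values and normalized means, and were not used. The luciferase spike-in is not among the features (0), so counts are relative to the bulk of mRNAs, and a shift shared by all of them cannot be seen.

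Genes averaging 100 or more TMM-normalized counts in input (9 libraries) were tested by edgeR 4.0.16 (robust quasi-likelihood, Benjamini-Hochberg over 7418 genes, two-sided) on the 6 libraries. A gene was called where the adjusted p did not exceed 0.05 and the change reached 2-fold, the limits of the study. Alternatives were a replicate block, DESeq2 1.42.0, other scalings, filters and thresholds, and fits without a library. Deviations from the group means correlated at 0.847, 0.781 and 0.816 between libraries of the same number, all above 0.1. The numbers were therefore taken to pair the libraries. Numbers 2 and 3 also correlated across (0.691 and 0.781), so these values set number 1 apart but cannot tell number 2 from number 3. The labels do not say that libraries of a group are separate cultures, and p-values measure the spread between these libraries. The members and lists were chosen with earlier results of these data known. Named genes are those the study or an earlier account names for gld-4, the 12 of largest fold change per direction among called mRNAs that moved alike in all pairs, and up to 4 members per list with the smallest p at an adjusted p of at most 0.05 (the 2 most abundant where none passed); other called mRNAs, mcm-2, mcm-3, mcm-4, mcm-6, mcm-7, orc-3, pas-5, pbs-2, his-67, dnj-5, gst-1, mrpl-4, rab-8, rfc-1, orc-1, orc-2, orc-5, pcn-1, cdc-6, cdt-1 and fog-3 were added after values were seen. A result on 1 gene is not reported here. The steps were tested on simulated data. R 4.3.3 and Python 3.11.15 were used.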

Additional observations from a re-analysis of the deposited data

How the results depend on the processing

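The counts of 18 lower and 25 higher mRNAs moved with most settings. Lower mRNAs numbered 7 with library size alone as scaling, 28 with a mean of at least 10 over the input libraries, 136 at 1.5-fold and 199 at adjusted p alone; higher mRNAs numbered 93 with the replicate block, 78 with DESeq2, 8 with library size alone, 16 with a mean of at least 10, 10 with no filter, 40 with all 9 P libraries, 63 at 1.5-fold, 83 at adjusted p alone and 323 at 2-fold whatever the p. Fits without a library or a replicate number gave 0 to 39 lower and 0 to 56 higher mRNAs. The block kept gld-4 and all 86 other named genes that had passed, and moved 14 of the 37 that had not past the threshold. Library size alone left 16 of 86 named genes other than gld-4 past an adjusted p of 0.05, and no filter 32 of 86, while DESeq2 and the fits without gld-4(RNAi) replicate 1 or without both replicate 1 libraries left all 86. Each of the other 5 fits without 1 library, and those without number 2 or 3, left 0 of 86. gld-4 was between -3.73 and -3.48 without a library or number, and lost significance without gld-4(RNAi) replicate 2, control replicate 1, or both libraries of number 2 or 3 (edgeR adjusted p = 0.126, 0.0898, 0.629 and 0.171). Changes in P beyond input numbered 21 with DESeq2 and 0 to 8 without a library, the 8 without gld-4(RNAi) replicate 1.

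No gene past the threshold changed sign, and 14 of the other named genes did. The groups did not overlap in the genes past the threshold, so leaving out a library could hardly change their sign. Requiring a mean of 100 in P, a mean of 10 in input, or no filter put gld-2 at -0.0122, -0.0816 and -0.0877, lin-26 at -0.00185, -0.0681 and -0.0757, and clec-87 at -0.0145, -0.0827 and -0.0927; the last 2 filters put mex-5 at -0.0154 and -0.0246 and zyg-12 at -0.0649 and -0.0723. The block put lin-26 at -0.00948 and clec-87 at -0.0142. pab-2 was 0.0271 with DESeq2, 0.104 with library size, 0.0239 with upper quartile and 0.00495 with all 9 P libraries, and library size put pal-1 at 0.0346, snb-1 at 0.0197 and eif-2Balpha at 0.0327. Without a library or number the ranges were -0.126 to 0.145 for gld-2, -0.177 to 0.258 for pab-2, -0.00481 to 0.225 for mex-5, -0.479 to 0.0742 for rps-23, -0.0324 to 0.0723 for zyg-12, -0.702 to 2.89 for msp-36, -0.987 to 2.45 for msp-31, -0.116 to 0.247 for lin-26, -0.265 to 0.171 for pal-1, -0.166 to 0.0658 for snb-1, -0.334 to 0.924 for col-122, -1.06 to 1.11 for col-124, -0.131 to 0.243 for clec-87 and -0.11 to 0.0412 for eif-2Balpha. Where fewer libraries or more genes entered a fit, that is how it was built; otherwise the cause was not tested.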

Other observations

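One mRNA below the expression filter stood out, and was chosen after its values were seen. fog-3, a gene needed for germ cells to become sperm, had 66, 102 and 102 counts in the P libraries of gld-4(RNAi) and 6, 5 and 9 in those of control RNAi. In input it had 119, 146 and 136 counts in gld-4(RNAi) and 4, 4 and 3 in control RNAi, and in NP 117, 126 and 149 in gld-4(RNAi) and 7, 10 and 4 in control RNAi. The groups were separate in all 3 fractions.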
